A study of Mus musculus with 27 samples.

Results

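The cytochrome P450 genes outside the Cyp1 family were described across 9 dose groups of mouse colonic epithelium. A gene was a member if it was protein coding, had a systematic P450 symbol (Cyp, a family number, a subfamily letter and a gene number) other than Cyp1a1, Cyp1a2 or Cyp1b1, and had 10 or more reads in at least 3 of the 27 libraries. Of 91 candidates among 46078 gene rows, 42 met this minimum. The other 49 did not, and 12 of them had no read in any mouse. Just inside the minimum lay Cyp2c23, Cyp2c40 and Cyp2j13, which reached 10 reads in 3 libraries each, with highest counts of 18, 13 and 12. Just outside lay Cyp24a1, the vitamin D catabolic enzyme, which reached 10 reads in 2 libraries with a highest count of 37.

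The RNA came from epithelium scraped off the colon of 27 C57BL/6 males, 3 in each group, which were gavaged with sesame oil vehicle or with TCDD. There were 4 low doses (0.01, 0.03, 0.1 and 0.3 μg/kg) and 4 high doses (1, 3, 10 and 30 μg/kg). The mice were treated every 4 days for 28 days, 7 times in all, between 28 and 56 days of age, and tissue was taken early in the light period. TCDD is a dioxin that binds and activates the aryl hydrocarbon receptor (AhR), a transcription factor. No allele other than those of the strain is named for any group, and the controls received the oil alone.

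P450 enzymes are heme proteins that insert an oxygen atom from molecular oxygen into a substrate, with electrons passed on by the reductase Por at the endoplasmic reticulum or by ferredoxin in mitochondria. Members of families 2 and 3 oxidise drugs, food chemicals and steroids, and several of family 2 also act on arachidonic acid. Family 4 hydroxylates fatty acids and eicosanoids at the end of the chain, and the higher-numbered families serve sterols, bile acids, vitamin D and retinoic acid. Cyp1 genes are the classical AhR targets, whereas the genes outside that family are mostly known for control by other receptors such as CAR and PXR.

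Gene counts per library ran from 9305441 to 14371035 (median 11651026), and levels are given in CPM, counts scaled to the library size. No replicate pair within a group matched within sampling noise (χ2 per degree of freedom 5.84 to 27.2 over 27 pairs), and all 27 mice entered as separate replicates. The p-values of the fit rest on the spread between mice. The labelled tissue was checked against 10 colonocyte markers, whose summed level was 12100 to 12400 CPM in vehicle-treated mice and 11800 to 13800 CPM at 30 μg/kg, with none called at that dose. Over the rank of the dose, 4 of the 10 had a rising slope (adjusted p under 0.05, edgeR), and 23.4% of all genes had a slope in either direction. The dose was checked with Cyp1a1, at a mean of 0.0655 CPM in vehicle-treated mice and 2200 CPM at 30 μg/kg. The index barcodes of the libraries recurred, and 2 sets were inferred from the first or second use of each barcode in sample order. Samples were listed by rising dose, and what the second use stands for is not given in the sources used here. The first held vehicle, the 4 low doses and a single animal at 1 μg/kg (16 mice), and the second held the other 11 mice. In a fit with a term for each dose group, an index set term rests on the 1 μg/kg group alone. A call lost with that term therefore does not tell dose and index set apart. Genes of the circadian clock also moved with dose, 9 of 9 in the rising list and 4 of 5 in the falling list at 30 μg/kg. The index set thus followed the order of dose, as did the clock genes apart from 1 mouse at 0.01 μg/kg. At 1 μg/kg 6 of 9 rising and 4 of 5 falling clock genes were already called. Between 30 and 3 μg/kg 0 of either list were. In bulk tissue, fewer cells of a type and less RNA per cell cannot be told apart.

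The colonic P450 repertoire outside Cyp1 was dominated by Cyp2c55, a hydroxylase of arachidonic acid that is grouped here with the enzymes for foreign compounds. Levels were compared between genes per kilobase of exon. The summed level of the 42 members was 1220 to 2550 CPM per kb across mice (median 1830), and Cyp2c55 alone made up 53.1 to 81.3% of it (median 72.8%). Family 2, with 25 members, held a median of 86.7% of the sum, family 4 with 9 members 8.68%, and family 3 with 4 members 3.7%. Cyp20a1, Cyp26b1, Cyp27a1 and Cyp39a1 were the single members of their families and held medians of 0.318, 0.00915, 0.406 and 0.287%. The plot of levels shows this spread.

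**Figure D1:**
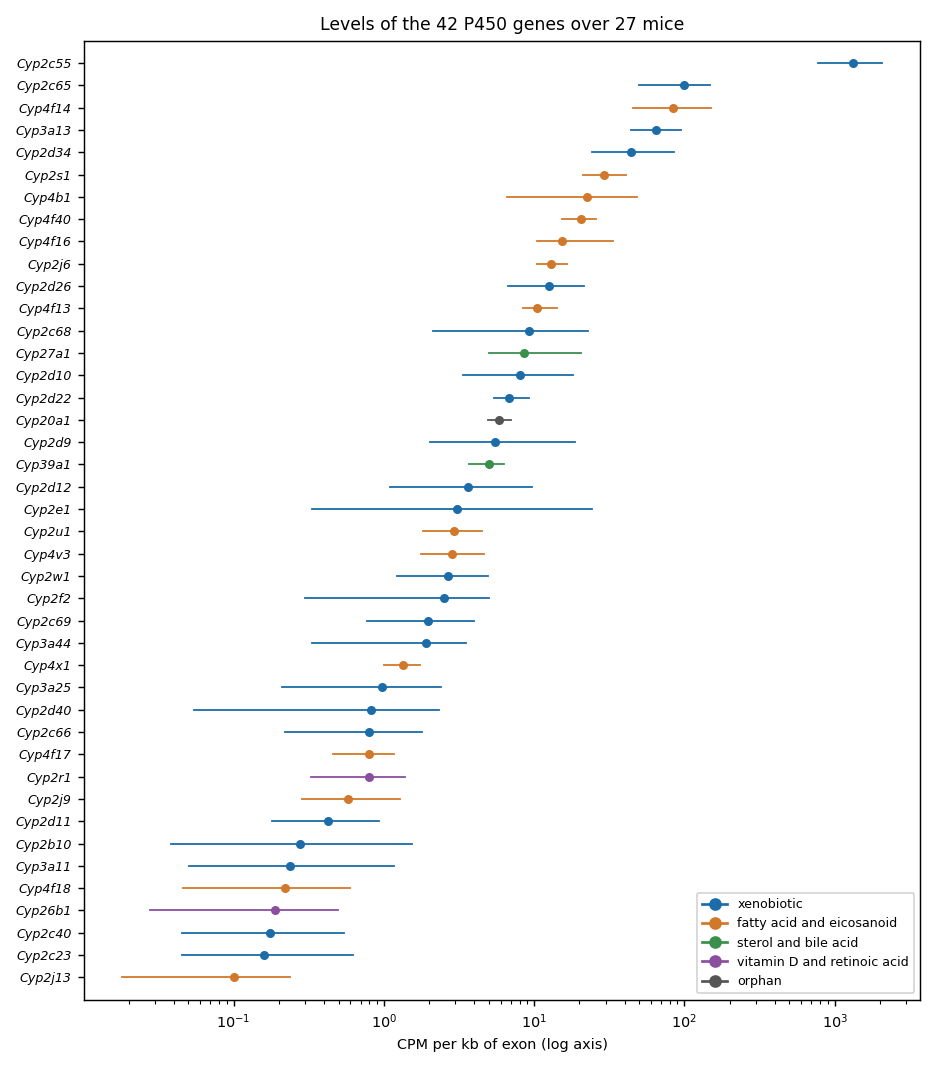
Level of each of the 42 members in CPM per kb of exon on a log axis, with points at the mean over the 27 mice, lines from the lowest value above 0 to the highest, and colours by role. Cyp2c55 lies at a mean of 1320 CPM per kb, above Cyp2c65 at 99.3, and Cyp2j13 lies lowest at 0.1.

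By mean CPM per kb, Cyp2c55 (1320) was followed by Cyp2c65 (99.3), Cyp4f14 (84.2), Cyp3a13 (65.2), Cyp2d34 (44.2), Cyp2s1 (29), Cyp4b1 (22.5), Cyp4f40 (20.6), Cyp4f16 (15.4) and Cyp2j6 (13). Neighbours in this order, down to Cyp2j13, had overlapping ranges over the mice, except Cyp2c55 and Cyp2c65. Cyp2d26 and Cyp4f13 completed the 12 members with 10 or more CPM per kb. A further 16 lay between 1 and 10 CPM per kb, namely Cyp2c68, Cyp27a1, Cyp2d10, Cyp2d22, Cyp20a1, Cyp2d9, Cyp39a1, Cyp2d12, Cyp2e1, Cyp2u1, Cyp4v3, Cyp2w1, Cyp2f2, Cyp2c69, Cyp3a44 and Cyp4x1. The remaining 14, at under 1 CPM per kb, were Cyp3a25, Cyp2d40, Cyp2c66, Cyp4f17, Cyp2r1, Cyp2j9, Cyp2d11, Cyp2b10, Cyp3a11, Cyp4f18, Cyp26b1, Cyp2c40, Cyp2c23 and Cyp2j13. By role, 23 members act mainly on foreign compounds, 14 on fatty acids and eicosanoids, 2 on sterols and bile acids, and 2 on vitamin D or retinoic acid, while Cyp20a1 is an orphan. None of the 6 candidate genes of steroid hormone synthesis reached the minimum.

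P450 genes occur in clusters of close copies, and reads that aligned to several places (30.7 to 37.1% of each table) were not counted for any gene. In a search of 50-base windows against the transcripts of all other genes, 8 of the 42 members shared none, among them Cyp27a1, Cyp39a1, Cyp3a13 and Cyp2j9. In 26 members over 5% of windows were shared, and the highest shares were 72.1% in Cyp2c40, 54.8% in Cyp2c69, 43.3% in Cyp2c68 and 40.5% in Cyp2d10. Levels of these genes are therefore uncertain. Cyp2c55 (1.13%), Cyp4f14 (2.72%) and Cyp2e1 (4.82%) shared little, while Cyp3a25 shared 26.8%, mostly with Cyp3a59, and Cyp2b10 shared 9.69%, mostly with Cyp2b13. Cyp2s1 shared 6.78% with a gene on the other strand, Gm26707, and the strand setting of the counting is not given in the sources used here.

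Members were called against vehicle at 1 μg/kg and above, and none was called at a lower dose. All 9 groups entered 1 fit of edgeR's quasi-likelihood test, and a gene was called at a Benjamini-Hochberg adjusted p under 0.05, over the 16496 genes tested, with a fold change of at least 1.5. Of the 42 members, 40 passed the filter on low counts and were tested. Cyp4f18 (0 to 1.11 CPM) and Cyp2c23 (0 to 1.34 CPM) were not. At 0.01, 0.03, 0.1 and 0.3 μg/kg, 0 members were called, and of all genes 0% were called at each. DESeq2 and limma voom also called 0 members at these doses. At an unadjusted p under 0.05, edgeR gave 2, 2, 3 and 1 of the 40 members, beside 6.35, 4.64, 6.37 and 5.19% of all genes. The smallest adjusted p of a member was 0.781, 0.988, 0.739 and 0.937 (edgeR). The standard errors of the members at these doses ran from 0.119 to 1.75 on the log2 scale.

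At 1 μg/kg 1 member was called, where 0.2% of all genes were called, and at 3 μg/kg 1 member was called beside 0.697%. At 10 μg/kg 2 members were called beside 1.78%, and at 30 μg/kg 4 members beside 6.16%. The 5 members called at any dose were Cyp4f14, Cyp27a1, Cyp2e1 and Cyp2b10, all higher, and Cyp3a25, lower. The other 35 tested members were called at no dose. The median log2 fold change of the 40 members at 30 μg/kg was -0.006, beside -0.002 over all genes. At 30 μg/kg the ranges of treated and vehicle-treated mice did not overlap for 11 of the 40 members (27.5%), near the 29.7% of all genes.

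At 30 μg/kg, where 6.16% of all genes were called, 1 of 13 tested fatty acid and eicosanoid genes was called (Cyp4f14, higher). So were 2 of 22 tested genes for foreign compounds (Cyp2e1 and Cyp2b10, higher) and 1 of 2 sterol genes (Cyp27a1, higher). Neither of the 2 genes for vitamin D and retinoic acid was called, nor was Cyp20a1. The plot of fold changes by dose sets these groups side by side.

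**Figure D2:**
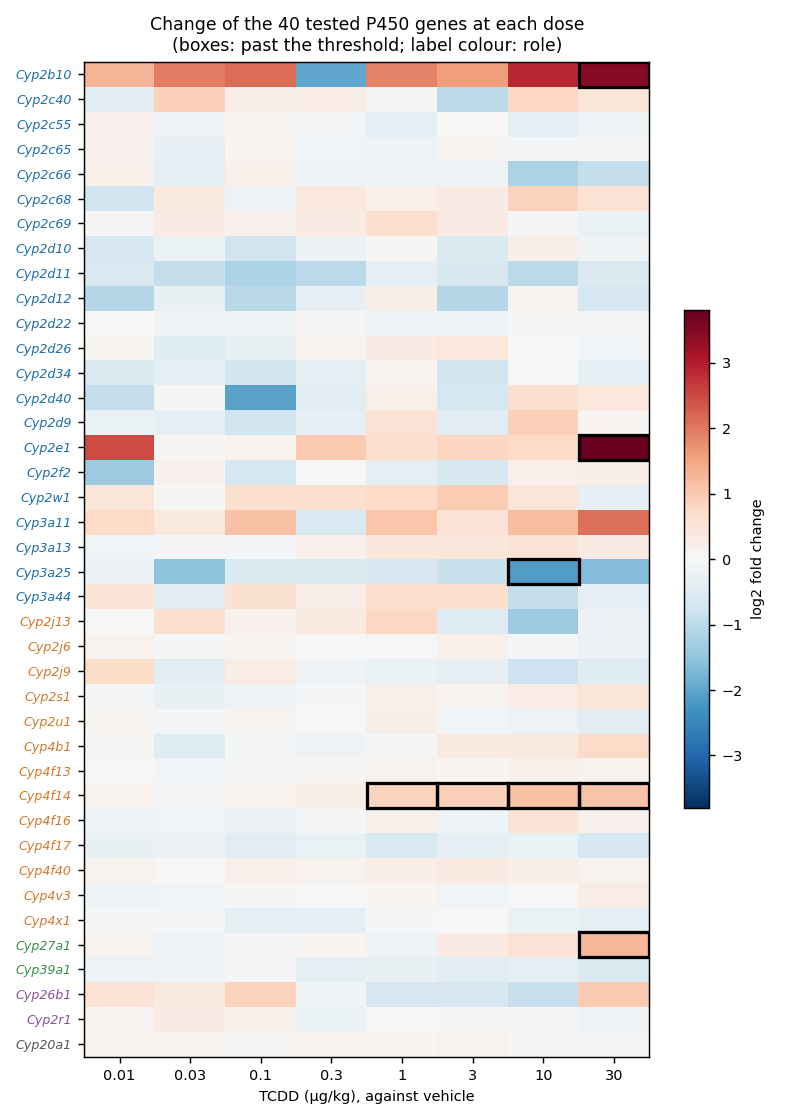
Heat map of the log2 fold change against vehicle (edgeR) of the 40 tested members (rows, label colour by role) at each dose of TCDD in μg/kg (columns), red higher and blue lower, with black boxes around called values. Cyp4f14 is boxed at 1, 3, 10 and 30 μg/kg, and the values boxed at 30 μg/kg lie between 1.08 (Cyp4f14) and 3.72 (Cyp2e1).

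Cyp4f14, a leukotriene hydroxylase of the fatty acid group, was the member called at the largest number of doses. It lies on the minus strand at chr17:32905070-32917342 (GENCODE M21, GRCm38). Vehicle-treated mice had 126, 164 and 125 CPM. At 0.3 μg/kg the mice had 192, 147 and 154 CPM, which overlapped vehicle. At 1 μg/kg they had 228, 250 and 268 CPM, all above every vehicle-treated mouse. The levels were 225, 225 and 319 CPM at 3 μg/kg, then 362, 256 and 276 CPM at 10 μg/kg and 335, 285 and 257 CPM at 30 μg/kg. From 1 μg/kg on, the groups overlapped each other but none overlapped vehicle. The log2 fold changes were 0.85, 0.89, 1.11 and 1.08 at these 4 doses (SE 0.176 each), or 1.8-, 1.85-, 2.15- and 2.11-fold, with adjusted p = 0.0352, 0.00902, 0.00123 and 0.00047 (edgeR).

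The calls of Cyp4f14 at 10 and 30 μg/kg were kept whichever mouse was left out. At 1 μg/kg the call was lost without vehicle replicate 1, vehicle replicate 3 or any of the 3 treated mice (adjusted p 0.0409 to 0.213 over the mice left out, edgeR), and at 3 μg/kg without vehicle replicate 1, vehicle replicate 3 or 3 μg/kg replicate 3 (adjusted p 0.0107 to 0.0845). The mouse at 1 μg/kg in the first index set had 228 CPM and those in the second had 250 and 268 CPM. A term for the index set gave log2 0.90 at 30 μg/kg (adjusted p = 0.0982, edgeR). A clock score, the mean log2 CPM of the 9 rising minus that of the 5 falling clock genes, was -2.722, -2.642 and -2.474 in vehicle-treated mice and 2.169, 1.535 and 2.194 at 30 μg/kg. That score as a covariate gave log2 0.61 at 30 μg/kg (adjusted p = 0.288, edgeR). Replicate 3 at 0.01 μg/kg had a clock score of 1.455 and 193 CPM of Cyp4f14, against 148 and 110 CPM in its group. It had the highest level of any mouse up to 0.1 μg/kg. Dose, index set and clock score thus cannot be told apart for this gene from 3 μg/kg on.

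Cyp27a1, the mitochondrial sterol hydroxylase that starts the acidic pathway of bile acid synthesis, was higher at 30 μg/kg. It lies at chr1:74713574-74737892 on the plus strand. Vehicle-treated mice had 11.9, 18.6 and 15.4 CPM, and mice at 30 μg/kg had 22.3, 43.7 and 44.3 CPM, so that the groups did not overlap. The log2 fold change was 1.26 (SE 0.223, 2.4-fold, adjusted p = 0.000915, edgeR), and it was called whichever mouse was left out (1.11 to 1.53). Adding the index set to the fit gave log2 1.35 (adjusted p = 0.0599, edgeR). At 10 μg/kg the mice had 27.7, 20 and 19.9 CPM (adjusted p = 0.179), and at 3 μg/kg 17.8, 18.3 and 20.2 CPM. Levels up to 1 μg/kg were 10.9 to 20.5 CPM. The comparison of 30 with 3 μg/kg lies within the second index set, and there Cyp27a1 was 1.95-fold higher (log2 0.97, SE 0.218, adjusted p = 0.0374, edgeR). That call was lost in 5 of the 6 fits that left out 1 of these mice (adjusted p 0.00138 to 0.187) and with an adipocyte score, described with Cyp2e1, in the fit (log2 0.83, SE 0.229, adjusted p = 0.112).

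Cyp2e1, which oxidises ethanol and other small molecules, had the highest fold change at 30 μg/kg and a wide spread between mice. The gene lies at chr7:140763739-140774987 on the plus strand. Vehicle-treated mice had 0.787, 1.9 and 3.44 CPM, and mice at 30 μg/kg had 3.96, 24.7 and 52.8 CPM. The lowest treated mouse was thus just above the highest vehicle-treated mouse. The log2 fold change was 3.72 (SE 0.738, 13.2-fold, adjusted p = 0.00254, edgeR), and the call was kept whichever mouse was left out (2.79 to 4.33). It was lost with a term for the index set (log2 3.19, adjusted p = 0.205), with the clock score (log2 3.85, adjusted p = 0.107) and in limma voom. At 0.01 μg/kg Cyp2e1 was at 17.6, 6.18 and 10.6 CPM, also above vehicle, but was not called (log2 2.48, adjusted p = 0.781). From 0.03 to 10 μg/kg it lay between 0.717 and 6.16 CPM.

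Markers of fat cells moved with Cyp2e1. The summed level of 6 adipocyte markers was 6.99, 18.3 and 26.2 CPM in vehicle-treated mice, 111, 49.1 and 57.8 CPM at 0.01 μg/kg and 22.7, 46.9 and 157 CPM at 30 μg/kg, where 2 of the 6 (Cidec and Fabp4) were called higher. The 8 smooth muscle and stroma markers summed to 147, 117 and 126 CPM with vehicle and 378, 130 and 657 CPM at 30 μg/kg, with 1 of 8 (Dcn) called. An adipocyte score was taken as the mean log2 CPM of the 6 adipocyte markers in each mouse. With this score in the fit, Cyp2e1 was still called at 30 μg/kg (log2 2.33, SE 0.489, adjusted p = 0.00627, edgeR), and Cyp27a1 as well (log2 1.11, adjusted p = 0.00635). Against 3 μg/kg (6.16, 3.94 and 0.931 CPM) Cyp2e1 had a log2 fold change of 2.90 (SE 0.679, adjusted p = 0.0492), although the groups overlapped. That call was kept only without 30 μg/kg replicate 1 and lost in the other 5 of 6 fits that left out 1 of these mice (log2 1.97 to 3.48, adjusted p 0.00282 to 0.305). With the adipocyte score this was 1.82 (adjusted p = 0.0552). Liver markers, 6 in all, summed to 2.36 to 7.48 CPM with vehicle and 7.94 to 16.8 CPM at 30 μg/kg. Most of this sum was Ttr (means 3.95 and 10.3 CPM). Alb was at means of 0.494 and 0.805 CPM, and Fgb and Serpina1a were at 0 in both groups. Neither of the 2 tested liver genes was called, and the part of these markers in the result was not tested.

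Cyp2b10, the classical target of the xenobiotic receptor CAR, was called at 30 μg/kg from very few reads. The gene lies at chr7:25897620-25926624 on the plus strand. Vehicle-treated mice had 1, 3 and 0 reads (0.0984, 0.316 and 0 CPM), and mice at 30 μg/kg had 6, 39 and 13 reads (0.431, 3.26 and 1.12 CPM). Every treated mouse was higher, but replicate 2 held 39 of the 58 reads. The ratio of summed counts per library was 11.5 (58 against 4 reads, 95% counting interval 4.28 to 43.8, which covers counting error only), with adjusted p = 0.0202 (edgeR). The log2 fold change of the fit was 3.46, and it ran from 2.41 to 4.74 over the fits that left out 1 mouse. The call was lost without vehicle replicate 1, vehicle replicate 3 or 30 μg/kg replicate 2 (adjusted p = 0.0812, 0.0871 and 0.151), once the index set was added to the fit (adjusted p = 0.135) and in limma voom. At 10 μg/kg the ratio was 7.9 (39 against 4 reads, 2.85 to 30.4, adjusted p = 0.11). At 0.03 and 0.1 μg/kg Cyp2b10 was also above vehicle in 5 of 6 mice, at 0.437 to 0.99 CPM in those, and at 3 μg/kg in all 3 mice, at 0.343 to 0.552 CPM. It was called at none of these doses.

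Of the small intestine markers, Lct and Apoa4 moved with Cyp2b10 in part, while the means of the other 3 tested were lower at 30 μg/kg. Of the 6 listed, Lct was at 0.984, 1.16 and 0.393 CPM with vehicle, at 8.62, 2.83 and 8.65 CPM at 10 μg/kg and at 2.16, 18.7 and 2.24 CPM at 30 μg/kg, where it was called higher (adjusted p = 0.0307, edgeR). Apoa4 was at 3.44, 3.48 and 4.81 CPM, then 14.6, 5.31 and 14.9 CPM, then 4.17, 34.9 and 7.5 CPM (adjusted p = 0.109 at 30 μg/kg). Both were highest at 30 μg/kg in replicate 2 and lowest at 10 μg/kg in replicate 2, as was Cyp2b10 (3.26 and 0.257 CPM). At 0.03 μg/kg Lct was at 3.5, 5.33 and 0.749 CPM (Cyp2b10 at 0.437, 0.615 and 0.583 CPM), at 0.1 μg/kg at 6.14, 8.12 and 0.476 CPM (Cyp2b10 at 0.717, 0.99 and 0.19 CPM) and at 0.3 μg/kg at 0.0838, 0.161 and 0.296 CPM (Cyp2b10 at 0, 0.0807 and 0 CPM). Thus, the low mouse at 0.1 μg/kg and the low group at 0.3 μg/kg were the same for both genes, whereas replicate 3 at 0.03 μg/kg was low for Lct alone. At 0.01 μg/kg Lct was highest in replicate 2 (0.684, 2.26 and 0.475 CPM) and Cyp2b10 in replicate 1 (0.782, 0.261 and 0 CPM). The other 3 tested genes of the list, Slc10a2, Fabp6 and Defa24, were not called. Their means at 30 μg/kg were 47.6, 1.56 and 0.983 CPM, against 74.4, 2.44 and 1.24 CPM with vehicle. The summed level of the list overlapped, at 57.1 to 98.8 CPM with vehicle and 51.6 to 97.8 CPM at 30 μg/kg. The part of these markers in the change of Cyp2b10 was not tested.

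Cyp3a25, a family 3 enzyme for drugs and steroids, was the only member called lower. It lies on the minus strand at chr5:145977194-146009618. Vehicle-treated mice had 1.87, 3.37 and 5.01 CPM (19, 32 and 51 reads), and mice at 10 μg/kg had 0.512, 0.685 and 1.12 CPM (6, 8 and 15 reads). The groups did not overlap, and the level was 4.32-fold lower (log2 -2.11, SE 0.574, adjusted p = 0.0443, edgeR). The call was kept only when vehicle replicate 1 was left out, and was lost without any of the other 5 mice (adjusted p 0.0445 to 0.191 over the 6 fits). It was also lost with the index set (log2 -2.56, adjusted p = 0.209), with the clock score (log2 -1.07, adjusted p = 0.672) and in limma voom. At 30 μg/kg the levels were 0.719, 1.51 and 1.03 CPM, again below every vehicle-treated mouse, with log2 -1.66 (adjusted p = 0.0531). DESeq2 called the gene at 30 μg/kg (adjusted p = 0.0294). The plot of CPM by dose shows the called members mouse by mouse.

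**Figure D3:**
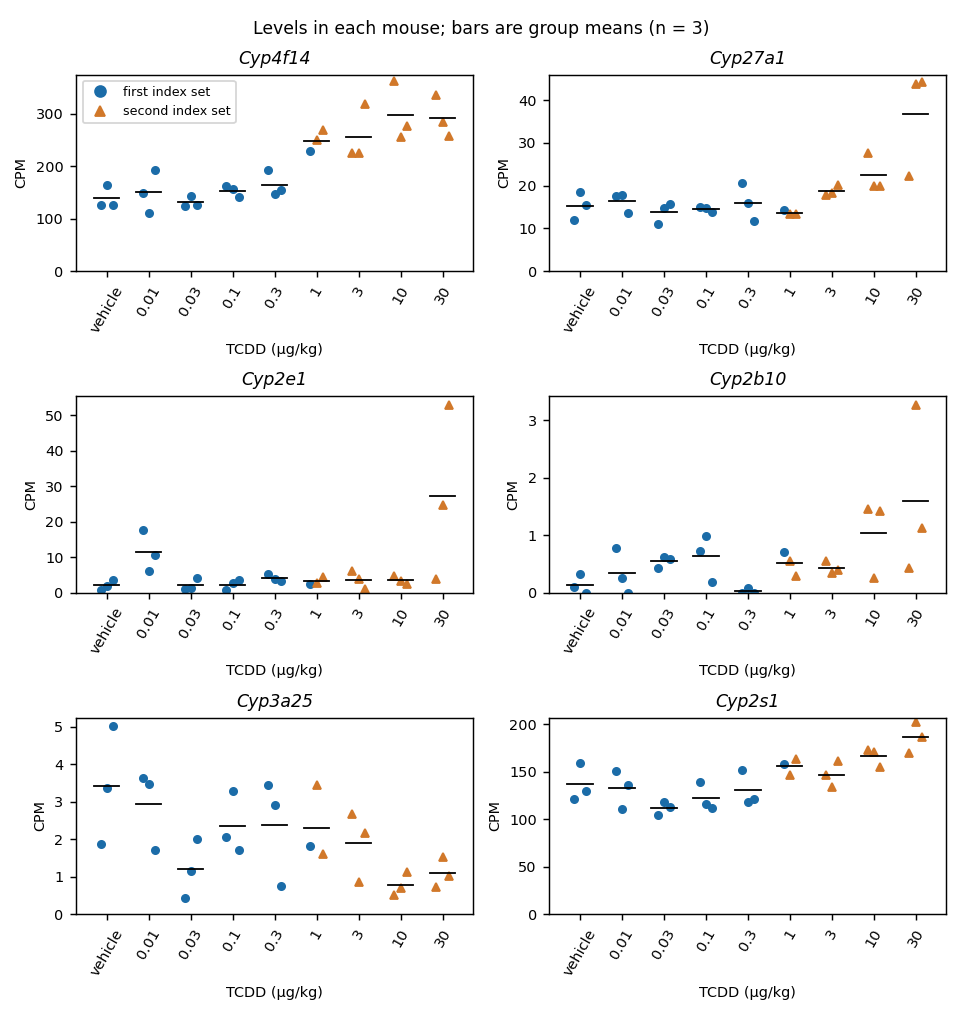
CPM in every mouse (points, circles for the first and triangles for the second index set) by dose of TCDD in μg/kg for the 5 members called at any dose and Cyp2s1, with a bar at each group mean. Cyp4f14 lies at 225 to 362 CPM from 1 μg/kg on against 125 to 164 CPM with vehicle, while Cyp2e1 lies above vehicle at 30 μg/kg, where it was called, and at 0.01 μg/kg, where it was not.

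The promoters of the 4 members called higher at 30 μg/kg are shown because AhR binds the core motif GCGTG. They cover 250 bases before the RefSeq transcription start (GRCm38.p6), written 5′ to 3′ on the gene's strand, with any GCGTG or its reverse complement CACGC in capitals. They are Cyp4f14 at chr17:32917357-32917606 (minus strand), Cyp27a1 at chr1:74713285-74713534, Cyp2e1 at chr7:140763569-140763818 and Cyp2b10 at chr7:25897408-25897657 (plus strand).
Cyp4f14: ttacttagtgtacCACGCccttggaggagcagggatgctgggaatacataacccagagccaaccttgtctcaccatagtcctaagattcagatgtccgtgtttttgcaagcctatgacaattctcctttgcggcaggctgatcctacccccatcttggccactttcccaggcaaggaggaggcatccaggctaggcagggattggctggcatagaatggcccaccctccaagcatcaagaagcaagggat
Cyp27a1: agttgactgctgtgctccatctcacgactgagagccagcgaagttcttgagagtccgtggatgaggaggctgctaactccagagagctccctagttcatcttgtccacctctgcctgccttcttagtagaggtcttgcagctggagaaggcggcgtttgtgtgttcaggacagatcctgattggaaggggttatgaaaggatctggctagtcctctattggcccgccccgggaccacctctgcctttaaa
Cyp2e1: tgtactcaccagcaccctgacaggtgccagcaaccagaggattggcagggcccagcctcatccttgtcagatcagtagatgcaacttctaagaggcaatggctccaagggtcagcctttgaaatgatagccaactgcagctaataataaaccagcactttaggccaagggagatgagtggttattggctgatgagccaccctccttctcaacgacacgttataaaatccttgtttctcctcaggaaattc
Cyp2b10: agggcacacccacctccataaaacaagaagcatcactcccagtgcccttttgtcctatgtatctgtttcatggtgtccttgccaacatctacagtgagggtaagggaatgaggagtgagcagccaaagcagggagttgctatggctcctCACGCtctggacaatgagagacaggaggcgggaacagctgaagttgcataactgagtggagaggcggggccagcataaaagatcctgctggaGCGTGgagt

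Cyp2b10 held the core 2 times, starting at -101 and -9 from the transcription start. For Cyp4f14 the window is that of the start farthest upstream of 4 listed, with a core at -237, and the windows of the other 3 starts held none. Neither Cyp27a1 nor Cyp2e1 held it. Of the 42 members, 34 matched the table, and 9 of these (26.5%) held GCGTG on either strand in a window, namely Cyp20a1, Cyp2b10, Cyp2c68, Cyp2j13, Cyp2j9, Cyp2w1, Cyp4f14, Cyp4f16 and Cyp4v3. Counted by window, 10 of the 40 windows of these members (25%) held it, beside 28.2% of all 32851 promoter windows of the same length. A match here is a description of the sequence, not a binding site.

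Over the rank of the dose, with vehicle as the lowest, 8 of the 40 members had a slope at an adjusted p under 0.05 (edgeR), beside 23.4% of all genes. Cyp4f14, Cyp27a1, Cyp2b10, Cyp2s1 and Cyp3a13 rose, and Cyp2j9, Cyp39a1 and Cyp3a25 fell. Per dose step, Cyp4f14 rose by 0.17 on the log2 scale (SE 0.0181, adjusted p = 4.36e-07), Cyp27a1 by 0.13 (SE 0.0261, adjusted p = 0.000562) and Cyp2b10 by 0.30 (SE 0.0867, adjusted p = 0.0112). Cyp3a25 fell by 0.18 per step (SE 0.0541, adjusted p = 0.0163). Once the index set was added to the fit 0 of the 40 slopes passed, beside 0.0667% of all genes, so the trend and the index set cannot be told apart. In that fit the slope of Cyp4f14 was 0.087 (SE 0.0296, adjusted p = 0.151), that of Cyp27a1 0.11 (SE 0.0538, adjusted p = 0.304), that of Cyp2b10 0.34 (SE 0.185, adjusted p = 0.391) and that of Cyp3a25 -0.21 (SE 0.0968, adjusted p = 0.29). The values of Cyp27a1, Cyp2b10 and Cyp3a25 thus moved by less than their standard errors, while that of Cyp4f14 was lower.

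The other 4 members with a slope were called at no single dose. Cyp2s1, an extrahepatic enzyme of retinoids and eicosanoids known to respond to dioxin, was at 170, 202 and 187 CPM at 30 μg/kg against 121, 159 and 130 CPM with vehicle. This was 1.37-fold higher (log2 0.45, SE 0.119, adjusted p = 0.0183, edgeR) and under the fold minimum. Cyp39a1, an oxysterol hydroxylase of bile acid synthesis, was at 12.7, 12 and 12.7 CPM against 19.2, 18.2 and 16.9 CPM, or 1.45-fold lower (log2 -0.54, SE 0.142, adjusted p = 0.0179). The ranges of both genes were separate from vehicle. At 0.03 μg/kg Cyp2s1 was at 104, 118 and 113 CPM, below every vehicle-treated mouse (log2 -0.29, SE 0.12, adjusted p = 0.988, edgeR). Cyp3a13, the main family 3 gene of the colon, was at 279, 238 and 209 CPM at 10 μg/kg against 149, 194 and 160 CPM (log2 0.53, adjusted p = 0.0508), with a slope of 0.076 per step (SE 0.0146, adjusted p = 0.000362). Cyp2j9, an arachidonic acid epoxygenase, had a slope of -0.12 per step (SE 0.0328, adjusted p = 0.0102) at levels of 0.947 to 4.27 CPM. It was at 1.11, 1.46 and 1.04 CPM at 10 μg/kg, below the 2.16, 1.69 and 2.36 CPM with vehicle (1.72-fold lower, log2 -0.78, SE 0.32, adjusted p = 0.189), and at 3.42, 4.27 and 2.37 CPM at 0.01 μg/kg, above vehicle (log2 0.69, adjusted p = 0.781).

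The most abundant P450 genes were not called at any dose, apart from Cyp4f14. Cyp2c55 was at 2520, 2900 and 3020 CPM with vehicle and 1970, 3050 and 2470 CPM at 30 μg/kg (log2 -0.17, SE 0.256, adjusted p = 0.713, edgeR). Cyp2c65, its neighbour in the gene cluster, was at 136, 223 and 223 CPM and at 153, 211 and 234 CPM (log2 0.040, SE 0.318). Cyp2d34, of the family 2 subfamily that oxidises drugs, was at 177, 157 and 119 CPM and at 131, 116 and 99.3 CPM (log2 -0.38, SE 0.281, adjusted p = 0.407). The mice at 30 μg/kg overlapped vehicle for all 3 genes. Cyp2d34 lay below every vehicle-treated mouse at 0.01, 0.1 and 3 μg/kg (1.46-, 1.61- and 1.63-fold lower, adjusted p = 0.781, 0.764 and 0.215, edgeR), and Cyp2c55 did at 1 μg/kg (1.27-fold lower, adjusted p = 0.704).

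Of the fatty acid hydroxylases, Cyp4b1 was at 25.9, 65.6 and 48.5 CPM with vehicle and 45.7, 79.3 and 109 CPM at 30 μg/kg (log2 0.74, SE 0.427, adjusted p = 0.276, edgeR). Cyp4f40 was at 39, 45.7 and 52.4 CPM and at 53.7, 44.3 and 51.3 CPM (log2 0.12, SE 0.152). Cyp4f16 was at 50, 53.2 and 35.5 CPM and at 54.5, 57.5 and 44 CPM (log2 0.17, SE 0.243). Thus, Cyp4f14 was the only called gene among the 5 tested members of its subfamily, although the differences in response between these genes were not tested. The epoxygenase Cyp2j6 was at 40.1, 48.3 and 50.5 CPM and at 37.8, 42 and 39 CPM (log2 -0.23, SE 0.12, adjusted p = 0.233).

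Cyp3a11 and Cyp26b1 had high fold changes at low levels that did not pass the test. Cyp3a11, the PXR target of the liver, was at 0.295, 0.949 and 0.687 CPM with vehicle and 0.36, 5.94 and 2.16 CPM at 30 μg/kg (log2 2.11, SE 0.865, adjusted p = 0.116, edgeR). At 10 μg/kg it was at 1.71, 0.257 and 2.31 CPM, so that replicate 2 was again the highest mouse at 30 μg/kg and the lowest at 10 μg/kg, as for Lct and Apoa4, whose part was not tested. Cyp26b1, which breaks down retinoic acid, was at 0.787, 0.949 and 0.883 CPM and at 1.44, 2.09 and 1.72 CPM (log2 0.99, SE 0.501, adjusted p = 0.205). Its mice lay above every vehicle-treated mouse at 0.03, 0.1 and 30 μg/kg and below them at 10 μg/kg (0.683, 0.514 and 0.224 CPM, log2 -0.89, adjusted p = 0.456). Neither gene passed the test at any dose.

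Between 10 and 3 μg/kg, both in the second index set, 0 members were called by edgeR, beside 0.0485% of all genes. DESeq2 called 0 as well, and 7 of the 40 members had an unadjusted p under 0.05 by edgeR, beside 4.8% of all genes. These were Cyp2d9, Cyp2d10, Cyp2d12, Cyp2d34, Cyp3a25, Cyp3a44 and Cyp4f16. Between 30 and 3 μg/kg, Cyp27a1 and Cyp2e1 made up the 2 members called, both higher, beside 0.461% of all genes. Cyp4f14 had a log2 fold change of 0.19 (SE 0.173, adjusted p = 0.76) in that comparison.

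Mice of the same dose differed widely in many P450 genes, and 19 of the 40 tested members followed the Hox genes within the dose groups. Hox genes keep a stable pattern along the gut, with Hoxd13, Hoxb13 and Hoxa13 marking its distal end. A Hox score was taken as the first principal component of the 25 tested Hox genes (69.5% of their variance). It ran from -4.615 to 5.094 over the mice and was higher with more Hoxd13, Hoxb13 and Hoxa13. The score was added to the fit beside a term for each dose group, a test that was chosen after the data were seen. Of the 40 members, 19 followed the score at an adjusted p under 0.05 (edgeR), 9 with higher and 10 with lower levels, beside 10.3% of all genes. Within the first index set alone it was 18 of 40 (6 higher, 12 lower) beside 6.63%, and within the second 8 of 40 (5 higher, 3 lower) beside 1.61%.

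Within each of the Cyp2c and Cyp2d subfamilies some members were higher and others lower with the score, as the plot of changes per unit of score shows. Per unit of the score, Cyp2f2, an enzyme of naphthalene metabolism, was higher by 0.29 on the log2 scale (SE 0.0323, adjusted p = 9.15e-07, edgeR), Cyp2c68 by 0.27 (SE 0.0345, adjusted p = 5.9e-06) and Cyp2d12 by 0.23 (SE 0.0314, adjusted p = 1.55e-05). Cyp2d40 (0.19), Cyp2d9 (0.16), Cyp2d10 (0.16), Cyp2c69 (0.12), Cyp2d34 (0.097) and Cyp4f16 (0.069) were also higher. Levels of Cyp3a44 (log2 -0.22 per unit, SE 0.0449, adjusted p = 0.0015), Cyp2c66 (-0.19), Cyp4b1 (-0.18, SE 0.0244, adjusted p = 1.65e-05), Cyp3a25 (-0.17), Cyp2c65 (-0.14, SE 0.0122, adjusted p = 2.23e-08) and Cyp2w1 (-0.11) were lower. So were those of Cyp2c55 (-0.088, SE 0.0179, adjusted p = 0.00149), Cyp2d26 (-0.070), Cyp4f40 (-0.052) and Cyp2j6 (-0.041). Cyp2c55, Cyp2c65, Cyp2c68, Cyp2d10, Cyp2d12, Cyp2d9, Cyp2f2 and Cyp4b1 passed in each index set with the same sign.

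**Figure D4:**
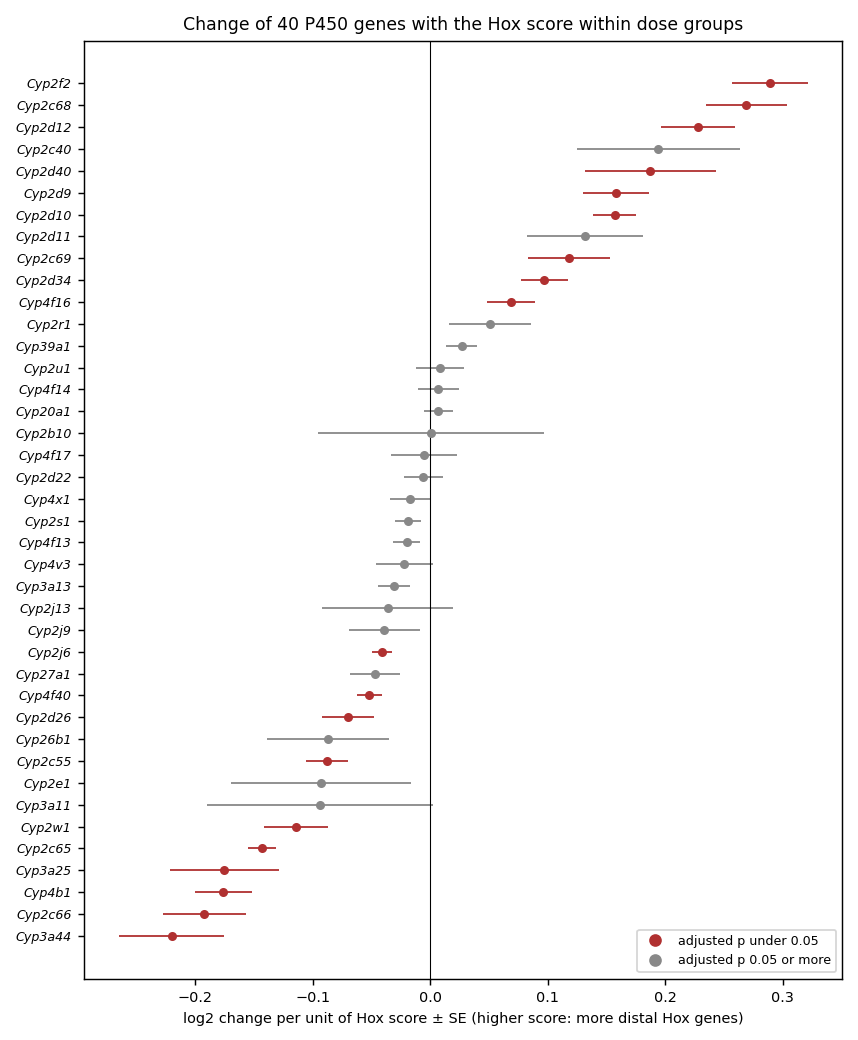
Log2 change per unit of the Hox score for the 40 tested members (edgeR), with bars of 1 SE and members with an adjusted p under 0.05 marked. Values run from -0.22 (Cyp3a44) to 0.29 (Cyp2f2), with 9 marked above 0 and 10 below.

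In the mouse with the lowest score, 0.01 μg/kg replicate 2, Cyp2f2 was at 0.61 CPM, Cyp2c68 at 4.09 CPM and Cyp2c65 at 249 CPM. In the mouse with the highest score, 0.03 μg/kg replicate 1, they were at 9.55, 23.5 and 96.9 CPM. The plot of levels against the score gives all mice for 6 members. Within the 10 μg/kg group, replicates 1 and 3 had scores of 4.675 and 3.845 and replicate 2 had -3.202. Cyp2d12 was at 37.7 and 18.2 CPM in the former and 4.28 CPM in the latter, while Cyp2c65 was at 136 and 144 against 284 CPM and Cyp4b1 at 52.4 and 32.6 against 94.8 CPM. The 3 mice of this group were thus split by score for each of these genes.

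**Figure D5:**
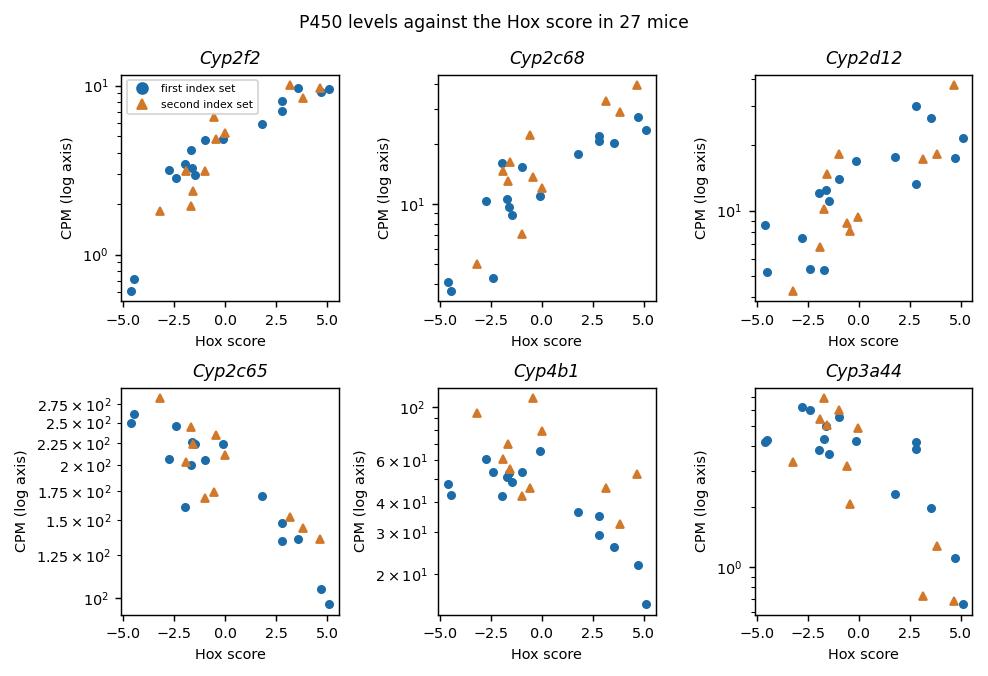
CPM in each of the 27 mice (log axis) against the Hox score (no unit) for 6 members that followed it, with circles for the first and triangles for the second index set. Cyp2c65 runs from 284 CPM down to 96.9 CPM with rising score, whereas Cyp2f2 runs from 0.61 up to 10.1 CPM.

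The genes of the chromosome 19 Cyp2c cluster divided by position. Cyp2c55 (chr19:39007019-39042693), Cyp2c65 (chr19:39061015-39093944) and Cyp2c66 (chr19:39113898-39187072) were lower with a higher score, while Cyp2c68 (chr19:39688834-39741054) and Cyp2c69 (chr19:39842814-39886799) were higher. Cyp2c40 did not pass (0.19, adjusted p = 0.0822, edgeR). Cyp2c40, Cyp2c68 and Cyp2c69 also had the highest shares of windows in common with other genes. In the Cyp2d subfamily Cyp2d9, Cyp2d10, Cyp2d12, Cyp2d34 and Cyp2d40 were higher, Cyp2d26 was lower, and Cyp2d11 and Cyp2d22 did not pass.

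Which stretch of the colon each scraping held is not given in the sources used here, and the 3 tested marker genes of position outside the Hox family were mixed. Osr2, listed as proximal, fell with the score (log2 -0.21 per unit, adjusted p = 2.95e-07, edgeR), Slc37a2, also listed as proximal, rose (0.43, adjusted p = 7.19e-06), and Cftr did not pass (0.025, adjusted p = 0.228). Over all mice, 4 of the 5 members called with dose did not pass for the score, at 0.0070 (adjusted p = 0.893) for Cyp4f14, -0.047 (0.193) for Cyp27a1, -0.093 (0.567) for Cyp2e1 and 0.0010 (0.998) for Cyp2b10, while Cyp3a25 did (-0.17, adjusted p = 0.0151, edgeR). Within the first index set Cyp27a1 also passed (-0.070, SE 0.0191, adjusted p = 0.0357), and within the second Cyp3a25 did not (-0.046, adjusted p = 0.95). With the score in the fit, Cyp3a25 was called lower at 10 μg/kg (log2 -1.86, adjusted p = 0.0203) and at 30 μg/kg (log2 -1.56, adjusted p = 0.019). Slopes over dose then passed for 14 of the 40 members, beside 26.4% of all genes in that fit, with Cyp2c66, Cyp2e1, Cyp3a11, Cyp4b1, Cyp4f13 and Cyp4f40 added.

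The partners of P450 enzymes were examined at 30 μg/kg, where 6.16% of all genes were called. Of 9 tested electron donors and cytochrome b5 genes, 1 was called. It was Por, the P450 reductase, at a mean of 199 against 130 CPM (log2 0.61, SE 0.15, adjusted p = 0.0112, edgeR). Of 12 genes of heme synthesis and breakdown, 1 was called, namely Alas1, the first and rate-limiting enzyme of heme synthesis, at 188 against 105 CPM (log2 0.84, SE 0.273, adjusted p = 0.0486). With the adipocyte score in the fit Por was at log2 0.51 (SE 0.156, adjusted p = 0.0542) and Alas1 at log2 0.76 (SE 0.294, adjusted p = 0.13), and neither was called. The 3 P450 enzymes with other symbols, Cyp51 of cholesterol synthesis, Tbxas1 of thromboxane synthesis and Ptgis of prostacyclin synthesis, were not called (log2 0.021, 0.85 and 1.51, adjusted p = 0.949, 0.292 and 0.21).

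Epoxide hydrolases, which open the epoxides that P450 enzymes make, changed in both directions. Ephx2, the soluble enzyme for fatty acid epoxides, rose from 20.8 to 44.7 CPM (log2 1.10, SE 0.169, adjusted p = 0.000232, edgeR). Ephx4 fell from 5.67 to 3.1 CPM (log2 -0.87, SE 0.233, adjusted p = 0.0185), and Ephx1, the microsomal enzyme, was at 8.73 against 12.4 CPM (log2 -0.50, adjusted p = 0.0563).

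Of 19 tested receptors and factors that control P450 genes, 3 were called. The vitamin D receptor Vdr rose from 476 to 745 CPM (log2 0.65, adjusted p = 0.000254, edgeR) and Nfe2l2, the factor of the oxidative stress response, from 194 to 302 CPM (log2 0.64, adjusted p = 0.000941). Hnf4g, a nuclear receptor of the gut epithelium, fell from 46.4 to 21.6 CPM (log2 -1.10, adjusted p = 0.000296). Of 6 tested AhR targets outside the P450 genes, 5 rose (Ahrr, Gsta1, Gstp1, Nqo1 and Tiparp), and Ugt1a6a did not pass (log2 0.45, adjusted p = 0.21). All 6 tuft cell markers fell, from a summed 75.6 to 89.3 CPM with vehicle to 23.5 to 36 CPM at 30 μg/kg. Of the other marker lists, 1 of 5 small intestine genes (Lct) and 1 of 7 goblet genes rose, and 0 of 6 enteroendocrine, 0 of 7 immune, 0 of 2 tested liver, 0 of 5 proximal and 0 of 3 tested distal colon genes were called (edgeR).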

How the data were processed

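The authors deposited raw counts of reads for each gene in each mouse, without normalization. The submitters' processing notes name FastQC 0.11.3, Trimmomatic 0.33, TopHat2 2.1.0, SAMtools 1.2.0, HTSeq 0.6.1 and DESeq on GRCm38, and the strand setting is not given in the sources used here. Reads assigned to no feature (29.1 to 33.3% of each table), to several places (30.7 to 37.1%) or to overlapping genes (0.392 to 0.607%) entered no library size.

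Of 46078 gene rows, 45229 matched GENCODE M21. Counts were filtered with filterByExpr (minimum count 10), scaled by TMM and fitted with edgeR 4.0.16 (R 4.3.3), all 9 groups together, with no covariate. Each dose was compared with vehicle, 30 and 10 with 3 μg/kg, and a slope over dose rank was fitted. Scores used log2 CPM with a prior count of 2. Promoters and motifs were read with Python 3.11.15. Alternatives included DESeq2 1.42.0 and limma 3.58.1 (voom, posterior probability of at least 0.8). The steps were tested on simulated data. The members and the gene lists were chosen with earlier results of these data known. Members called at any dose and the 10 with the highest CPM per kb are given in full. Cyp2s1, Cyp39a1, Cyp2j9, Cyp3a11, Cyp26b1 and the examples of the Hox comparison were chosen after their values were seen. Replicate numbers were given in accession order and name mice only. The index sets were inferred from the barcodes named with each deposited table, as the first or second use of a barcode in sample order.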

Additional observations from a re-analysis of the deposited data

How the results depend on the processing

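At 0.01 to 0.3 μg/kg and for 10 against 3 μg/kg, each alternative run gave 0 members. Shares of all genes called in the same fit stand in parentheses. In the fits of dose groups the index set term rests on the 1 μg/kg group alone, which holds a single animal of the first set. With the index set in the fit, 0 members were called at 1, 3, 10 and 30 μg/kg (0.0727, 0.0121, 0.352 and 4.43%), and 0 slopes (0.0667%). With the clock score, 0 were called at 1, 3 and 10 μg/kg (0.00606, 0.0424 and 0.139%), 2 at 30 μg/kg (Cyp27a1 and Cyp2b10, 2.55%), 1 for 30 against 3 μg/kg (Cyp27a1, 0.503%) and 0 slopes (0.218%). Limma voom gave 1 member at 10 μg/kg (0.576%), 2 at 30 μg/kg (1.32%) and 0 for 30 against 3 μg/kg (0.255%). Fitting only the groups compared gave 2 members at 3 μg/kg (Cyp2d34 and Cyp4f14, 1.56%) and 0 for 30 against 3 μg/kg (0.212%). With the Hox score 14 slopes passed (26.4%). Within vehicle to 0.3 μg/kg, all in the first index set, 0 slopes passed (0%), and those of Cyp27a1 (-0.002) and Cyp2s1 (-0.023) turned negative. With the adipocyte score, added after seeing the data, 0 members were called for 30 against 3 μg/kg (0.436%). Leaving out each mouse in turn gave 0 to 1 members at 1 μg/kg, 0 to 1 at 3 μg/kg, 1 to 2 at 10 μg/kg, 3 to 5 at 30 μg/kg, 0 to 2 for 30 against 3 μg/kg and 7 to 11 slopes. The cause of these changes was not tested, except that fits without a mouse hold fewer samples. The counts under RLE size factors, DESeq2, other filters on low counts and an adjusted p alone lay within 1.5 times those reported. No paired analysis was possible because the replicate numbers were given in accession order and tie no mice together. Under the filter of the smaller fits Cyp2b10 was not tested. Depth limits the members under 1 CPM, where a few reads decide a value.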
